A study of Mus musculus with 8 samples.

Results

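The genes of the IL-12 cytokine family, Il12a, Il12b, Il23a, Il27 and Ebi3, were examined in 4 ChIP-seq peak lists of the murine dendritic cell (DC) line D1. They were taken as a list of 5 named genes out of 22350 protein-coding genes annotated on the chromosomes of the lists, and all 5 were found. D1 is a long-term line of splenic DCs of the C57BL/6 strain. One list holds the binding sites of NFATc2, called NFAT1 in the sample labels, in D1 cells made to express V5-tagged NFATc2 and given 10 μg/ml curdlan for 30 min. Chromatin was pulled down through the tag, so these sites are those of the expressed protein and not of the cells' own NFATc2. The other 3 lists hold trimethylation of lysine 4 of histone H3 (H3K4me3) in D1 cells that were non-treated (NT), treated with 10 μg/ml curdlan for 2 h, or treated for 2 h with curdlan and FK506. Curdlan is a beta-glucan that activates DCs through the receptor dectin-1, and FK506 blocks calcineurin, the phosphatase that sends NFAT proteins to the nucleus. A single ChIP library was sequenced per condition, beside 1 input library, with 14377535 ChIP tags for NFATc2 and 16662316, 21289349 and 19468498 tags for H3K4me3 in NT, curdlan and curdlan with FK506. With no replicates, differences between conditions are given without p-values, and the 95% intervals of tag counts (exact Poisson) and of their ratios (exact conditional binomial) cover counting error only.

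The members encode chains that pair to form secreted cytokines. IL-12 joins p35 (Il12a) to p40 (Il12b), IL-23 joins p19 (Il23a) to the same p40, and IL-27 joins p28 (Il27) to EBI3 (Ebi3), which can also pair with p35. Antigen-presenting cells make them after they sense microbes, IL-12 being known for driving interferon-gamma producing T cells and IL-23 for sustaining IL-17 producing T cells. H3K4me3 marks the start of genes that are active or ready to be transcribed, and such marks are most common at promoters rich in CpG dinucleotides.

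The 5 genes lie on 5 chromosomes of the mm9 build. Il12a (ENSMUSG00000027776.6) was at chr3:68494566-68502469 on the + strand, with 2 annotated transcription start sites (TSSs), and Il12b (ENSMUSG00000004296.8) at chr11:44213565-44227535 on the + strand. Il23a (ENSMUSG00000025383.1), at chr10:127733196-127735140 on the − strand, was the shortest of them at 1945 bp. Il27 (ENSMUSG00000044701.5) was at chr7:133732524-133738455 on the − strand, and Ebi3 (ENSMUSG00000003206.6) at chr17:56092046-56096444 on the + strand.

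The sequences around the NFATc2 summits nearest to each of the 4 genes with such a site are shown because they carry the binding data of the family. Each is printed 5′ to 3′ in the direction of the named gene, from 100 bp before to 100 bp after the summit. For Il27 only 29 bases are given, since that summit lies in a non-coding exon of Cln3. Capitals mark any match to 5 motifs searched on both strands: the NFAT core GGAAAA, the AP-1 site TGANTCA, the NF-κB decamer, an interferon response type repeat (GAAA, any 2 bases, GAAA) and the C/EBP site TTGCNNAA.
Il12b chr11:44212451-44212651, + strand: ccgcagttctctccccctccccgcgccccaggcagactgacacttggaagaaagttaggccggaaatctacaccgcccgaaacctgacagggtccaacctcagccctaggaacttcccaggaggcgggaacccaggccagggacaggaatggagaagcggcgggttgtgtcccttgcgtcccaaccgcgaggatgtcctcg
Il23a chr10:127735236-127735436, - strand: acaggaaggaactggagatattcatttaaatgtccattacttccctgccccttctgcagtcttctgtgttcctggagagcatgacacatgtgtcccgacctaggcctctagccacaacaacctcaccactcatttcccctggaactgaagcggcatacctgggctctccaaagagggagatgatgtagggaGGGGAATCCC
Ebi3 chr17:56098993-56099193, + strand: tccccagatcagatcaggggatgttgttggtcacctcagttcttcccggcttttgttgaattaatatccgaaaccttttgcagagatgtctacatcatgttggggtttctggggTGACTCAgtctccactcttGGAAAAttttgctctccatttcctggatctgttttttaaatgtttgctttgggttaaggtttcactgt
Il27 chr7:133728256-133728284, - strand: ccagaaagggGAAAGGGAAAAaaaaagtg

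The 150 bases before the most 5′ TSS of each gene are shown for their few CpG dinucleotides, which are in capitals.
Il12a, chr3:68494416-68494565, + strand: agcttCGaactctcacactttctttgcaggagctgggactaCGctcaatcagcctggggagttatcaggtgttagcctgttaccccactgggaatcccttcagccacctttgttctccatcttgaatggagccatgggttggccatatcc
Il12b, chr11:44213415-44213564, + strand: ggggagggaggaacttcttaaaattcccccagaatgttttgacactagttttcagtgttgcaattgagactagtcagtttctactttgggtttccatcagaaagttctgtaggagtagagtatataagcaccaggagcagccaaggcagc
Il23a, chr10:127735141-127735290, - strand: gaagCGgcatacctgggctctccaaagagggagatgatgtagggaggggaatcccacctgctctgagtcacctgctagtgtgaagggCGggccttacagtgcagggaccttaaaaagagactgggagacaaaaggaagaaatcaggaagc
Il27, chr7:133738456-133738605, - strand: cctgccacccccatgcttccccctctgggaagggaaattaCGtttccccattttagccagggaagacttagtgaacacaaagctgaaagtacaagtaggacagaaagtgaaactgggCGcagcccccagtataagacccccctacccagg
Ebi3, chr17:56091896-56092045, + strand: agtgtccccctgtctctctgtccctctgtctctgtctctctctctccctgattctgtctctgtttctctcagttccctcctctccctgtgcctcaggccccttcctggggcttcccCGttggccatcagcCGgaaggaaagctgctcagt

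NFATc2 summits were found near 4 of the 5 genes, and the chains that make up IL-23 had the closest ones. At a stricter p-value of 1e-10 this order held for Il12b but not for Il23a, whose nearest summit was then 39.1 kb away, farther than that of Ebi3, and that of Il27 was 420.7 kb away. Within 100 kb of a TSS there were 10 summits in all, of 9438 in the list: 4 at Il23a, 3 at Il12b, 2 at Il27, 1 at Ebi3 and none at Il12a. Of all protein-coding genes 55.4% had a summit within 100 kb, 30.2% within 30 kb and 7.5% within 2 kb. By the same limits, 4, 4 and 2 of the 5 members had one. The median over the members was 2 summits and 7.047 kb to the nearest, against 1 summit and 79.44 kb over all genes. Each summit was called at the threshold of the authors, a p-value of 1e-05 against input.

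**Figure D1:**
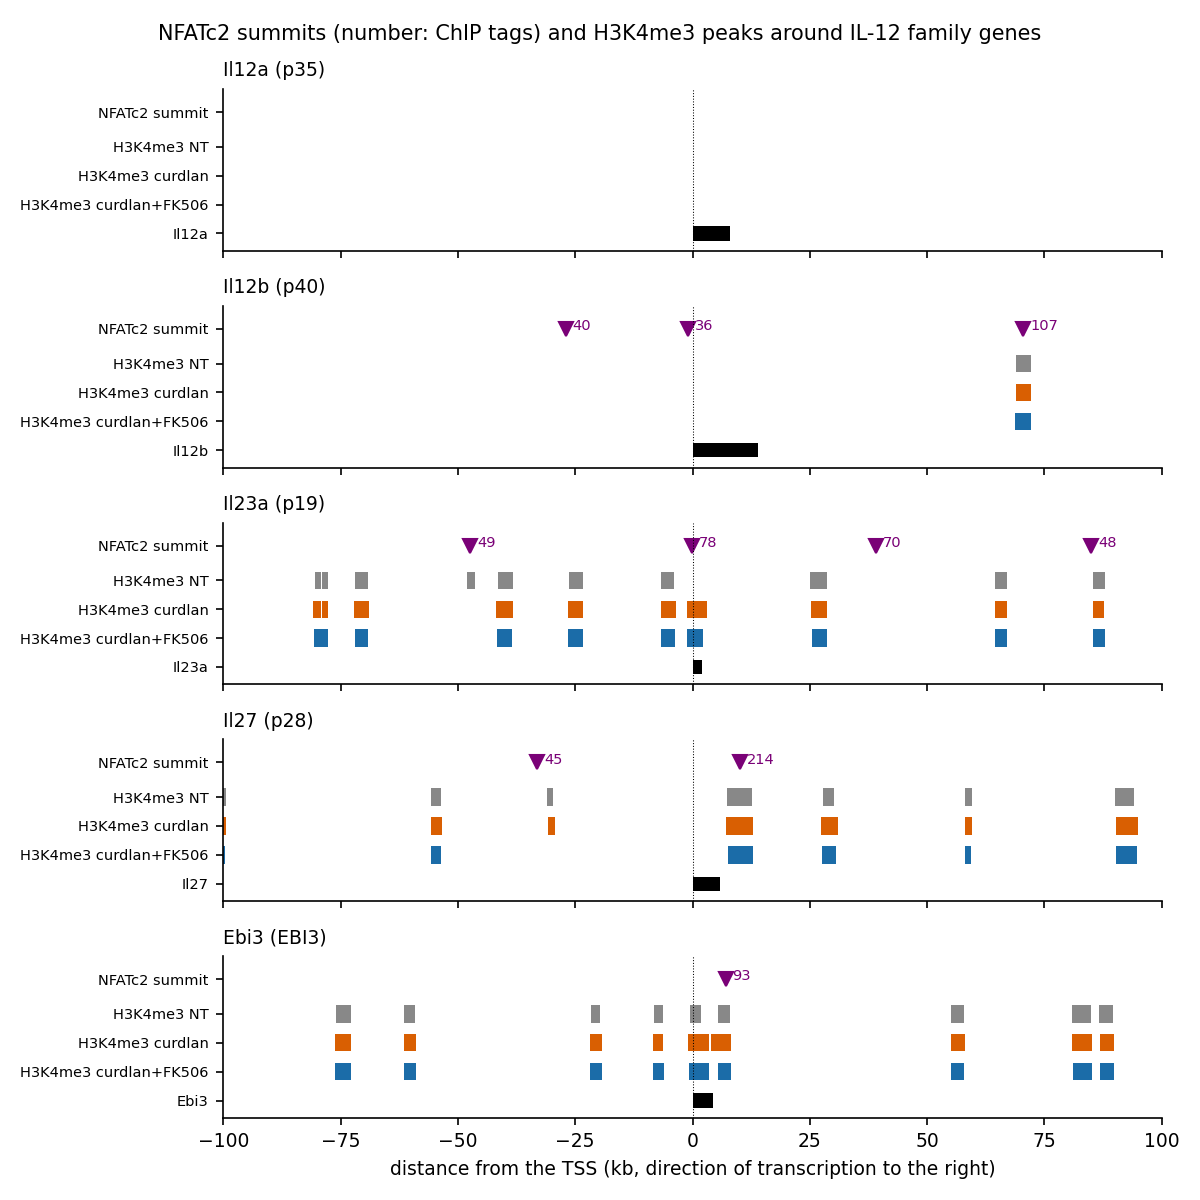
NFATc2 summits (triangles, with the number of ChIP tags) and H3K4me3 peaks (bars, 1 row for each condition) within 100 kb of the TSS of each IL-12 family gene, in kb along the direction of transcription, with the gene as a black bar. The Il12a window holds neither summits nor peaks, the Il12b window holds 3 summits and 1 H3K4me3 peak in each condition, and at Il23a a peak at the gene appears in curdlan and in curdlan with FK506.

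Il23a, the p19 chain that is particular to IL-23, carried its nearest summit at 196 bp before the TSS, and 1.84% of all genes had one as near. That peak (chr10:127734738-127735787) held 78 tags (61.7–97.3), more than 60.7% of all NFATc2 peaks, 8.8 times the local input background (p = 1.46e-06 in the list of the authors), at a false discovery rate (FDR) of 1.48%. Its tags were thus somewhat above the median of the list (63). Its fold enrichment was low for the list, above that of 13.7% of peaks, where the median was 13.36. The other 3 summits around Il23a were nearer to TSSs of other genes. The summit 39.1 kb downstream held 70 tags and was 4853 bp from Apon, an apolipoprotein gene, and the one 85.02 kb downstream held 48 tags and was 1268 bp from Spryd4. The summit 47.46 kb upstream, with 49 tags, was in an intron of Cs, the citrate synthase gene. Stat2, which encodes a transcription factor of the interferon response, Apof, Mip and Timeless also have TSSs between Il23a and the downstream summits, and Pan2 and Cnpy2 between Il23a and the summit in Cs.

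Il12b, the p40 chain shared by IL-12 and IL-23, carried its nearest summit at 1014 bp before the TSS, as near as in 5.35% of genes. That peak (chr11:44212018-44212990) was intergenic and small, with 36 tags (25.2–49.8), but its fold enrichment of 19.32 was above that of 77.6% of the list (p = 7.08e-11 in the list of the authors, FDR 0.06%). A second intergenic summit, 27.06 kb upstream, held 40 tags (28.6–54.5) at a fold enrichment of 13.89, and Il12b was the nearest protein-coding gene. The third, 70.51 kb downstream, was larger at 107 tags (87.7–129), and it lay 75 bp from the TSS of Ublcp1, a phosphatase gene. Il12b and Il23a thus differed in the form of their promoter sites: more tags at Il23a, and a greater enrichment over input at Il12b.

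The summits nearest to the chains of IL-27 sat at the starts of other genes. The one 10.19 kb downstream of the Il27 TSS held 214 tags (186–245), more than 94.7% of the list, and was 30 bp from a TSS of Cln3, a lysosomal membrane protein gene. Its other summit, 33.18 kb upstream with 45 tags (32.8–60.2), was 1112 bp from Nupr1, a stress-response gene. The single summit of Ebi3 held 93 tags (75.1–114) 7.047 kb downstream, in an intron of Ccdc94, 483 bp from the Ccdc94 TSS and 289 bp from that of Gm16712. As near a summit was found in 16.5% of all genes for Il27 and in 13.7% for Ebi3.

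Il12a, the p35 chain, stood apart from the rest of the family. Its nearest NFATc2 summit was 314.9 kb away, and 78.7% of protein-coding genes had one as near or nearer. The nearest H3K4me3 peak was 305 kb from the gene in all 3 conditions, at the shared start region of Ift80 and Smc4. An absent peak means only that the signal did not pass the threshold of the peak caller.

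H3K4me3 peaks were then sought over each gene and within 1 kb of its TSSs. In NT cells 1 of the 5 genes had a peak, Ebi3, while 51.5% of all genes had one. In curdlan and in curdlan with FK506, Ebi3 and Il23a had one, 2 of 5, against 51.2% and 51.1% of all genes. Il12a, Il12b and Il27 had none in any list, as was the case for 47.7% of all genes. The nearest peak to the Il12b gene, that of Ublcp1, was 55.0, 54.9 and 54.8 kb away in NT, curdlan and curdlan with FK506. Il27 had a peak much closer to it, 1439, 1203 and 1530 bp from its 3′ end, which covered the TSSs of Cln3 and Apobr and did not reach the Il27 TSS, 7.13 kb away at the least.

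Il23a had a peak with curdlan and none in NT. In NT cells its nearest peak was that of Pan2, 3.93 kb away. With curdlan a peak of 4244 bp (chr10:127732072-127736315) covered the whole gene and no TSS of another gene, with 412 tags (373–454) and an enrichment over input of 16.0-fold (p = 2.14e-24 in the list of the authors). With FK506 added, the peak was 3416 bp long (chr10:127732990-127736405) and held 189 tags (163–218), an enrichment of 11.5-fold at an FDR of 0.19%. Of 10850 genes with no peak in NT cells, 147 (1.35%) had one with curdlan. The median of these held 89 tags, and 25 of them held as many as Il23a. The Il23a peak in curdlan was nonetheless low for an H3K4me3 peak, above 39.3% of the list by tags and above 4.2% by fold enrichment.

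With FK506 the Il23a peak held fewer tags relative to the size of the library. Tags were divided by the ChIP tags of the library and given per 1000000 of them (RPM). There were 19.35 RPM (17.53–21.31) in curdlan and 9.708 (8.373–11.2) in curdlan with FK506, a ratio of 0.502 (0.42–0.597). Centred on the median of all genes with a peak in both lists, this was a log2 difference of -0.95 in RPM, past the limit of 1.5-fold used to call a change, and 3.86% of genes passed that limit downwards. Per kb of peak the difference was -0.67, also past the limit, and 1.48% of genes passed it downwards. By fold enrichment, the measure chosen for calls, it was -0.20 and was not called, where 13.8% of genes were called higher and 14.1% lower. The 2 intervals of RPM did not overlap, but they cover counting error only and belong to peaks of unlike length (4244 and 3416 bp). Of the 147 genes that gained a peak with curdlan, 79 (53.7%) also had one with FK506, and the median ratio of their RPM was 0.962. As low a ratio as that of Il23a was found in 8 of the 79 (10.1%), so a ratio of this size was not particular to Il23a. The rest of the 147 had no called peak with FK506 and so gave no ratio. The 79 therefore leave out the genes that lost their peak, and the place of Il23a among all 147 is not known.

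By RPM the peaks of the genes around Il23a were closer to each other with and without FK506. RPM at Pan2, a deadenylase gene, were 42.49, 31.85 and 32.87 in NT, curdlan and curdlan with FK506. At Stat2 they were 57.68, 47.96 and 44.23, and at Cnpy2 70.82, 63.46 and 64.82. By RPM all 3 neighbours were highest in NT cells, where Il23a had no peak, and by fold enrichment all 3 were lowest there. Fold enrichment was 35.71, 54.89 and 48.83 at Pan2 and 36.79, 66.0 and 60.33 at Stat2 in the same order. At Cnpy2 it was 40.45, 42.92 and 68.82, so that with FK506 added it moved upwards and by more than that of Il23a (16.0 and 11.5).

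**Figure D2:**
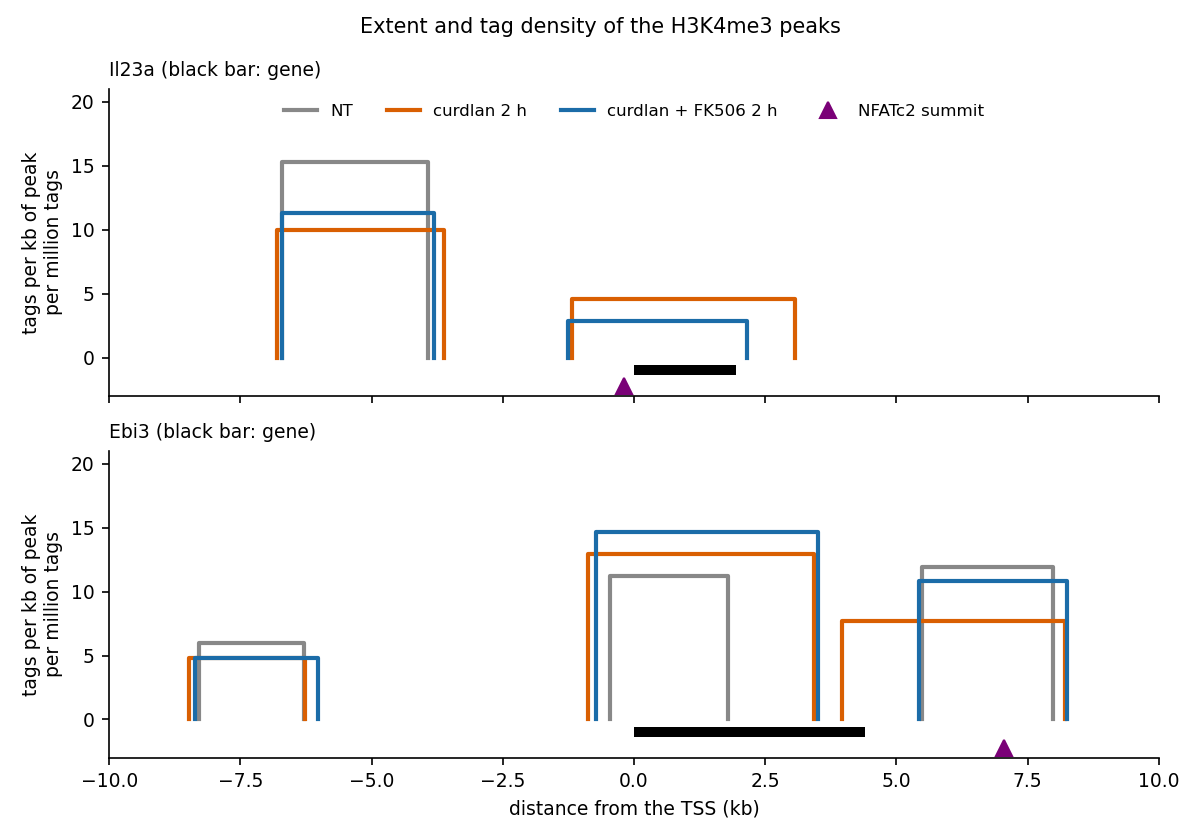
H3K4me3 peaks within 10 kb of the TSS of Il23a (top) and Ebi3 (bottom) in NT (grey), curdlan (orange) and curdlan with FK506 (blue), with the extent of each peak on the x axis (kb from the TSS) and its mean RPM per kb of peak on the y axis. The Il23a peak is absent in NT and lower with FK506 (2.842) than with curdlan alone (4.56), and the Ebi3 peak reaches 1795 bp past the TSS in NT and 3430 bp with curdlan.

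Ebi3 carried a peak in resting cells, and this peak was longer with curdlan. In NT it spanned 2250 bp (chr17:56091592-56093841) with 420 tags (381–462), enriched 49.65-fold. With curdlan it spanned 4301 bp (chr17:56091176-56095476), with 1183 tags (1120–1250), enriched 54.95-fold. With FK506 added it spanned 4233 bp (chr17:56091319-56095551), with 1207 tags (1140–1280), enriched 57.83-fold. It covered no TSS but that of Ebi3 in any list, and curdlan with FK506 was close to curdlan alone on each count.

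The direction of the Ebi3 change with curdlan depended on the measure. RPM was 25.21 (22.85–27.74) in NT and 55.57 (52.45–58.83) with curdlan, a ratio of 2.2 (1.97–2.47), and the centred log2 difference of 1.27 was called higher. As large a difference was seen in 227 of 11298 genes, or 2.01%, and 6.8% of genes were called higher. Peak length, a measure added after the data were seen, was 0.89 higher on the centred log2 scale, and 5.89% of genes were called higher by it. The centred difference was 0.39 in RPM per kb of peak, under the limit of 1.5-fold. By fold enrichment it was -0.59, just past the limit, and Ebi3 was called lower, as were 14.4% of all genes, while 13.8% were called higher. Fold enrichment itself was a little higher at Ebi3 with curdlan (log2 ratio 0.15), but over all genes the median log2 ratio of fold enrichment was 0.73. That of RPM was -0.12. The inputs held 12085435 tags in NT and 9309800 in curdlan, and the part of their depth in fold enrichment was not tested. MACS takes fold enrichment at the summit against the local input, and tag counts sum over the whole peak.

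Adding FK506 left Ebi3 near its value with curdlan alone. There were 62.0 RPM (58.55–65.6), a ratio to curdlan of 1.12 (1.03–1.21), and the centred log2 differences of 0.20 in RPM and 0.35 in fold enrichment were not called. Against NT, curdlan with FK506 gave 2.46 times the RPM (2.2–2.76), 1.47 on the centred log2 scale. Ebi3 was called higher, as were 5.48% of genes. Per kb of peak the difference was 0.59, also called higher, as were 2.36% of genes. By fold enrichment the same comparison gave -0.23 and no call, where 13.4% of genes were called higher and 13.5% lower. Il23a and Ebi3 thus had opposite signs with FK506 added to curdlan, by RPM and by fold enrichment alike, with 1 library per condition and no test of the difference.

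**Figure D3:**
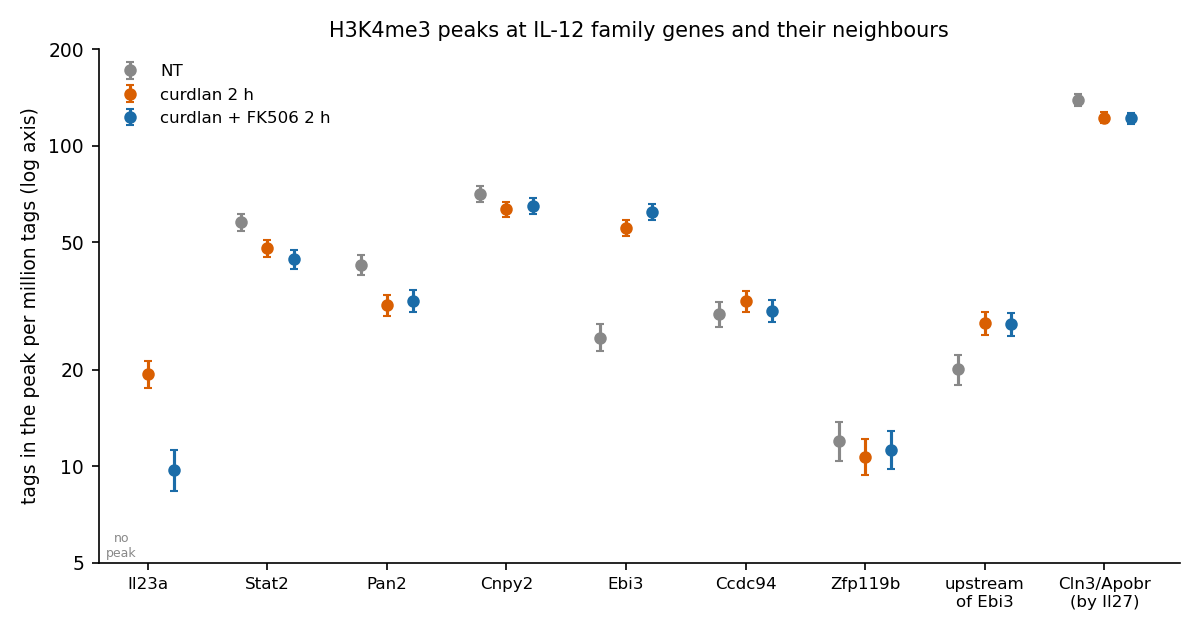
RPM of H3K4me3 peaks (log axis) at Il23a, Ebi3 and neighbouring genes in NT, curdlan and curdlan with FK506; bars are 95% Poisson intervals, which cover counting error only, and each condition is 1 library. Il23a was at 19.35 in curdlan and 9.708 in curdlan with FK506, Ebi3 at 25.21 in NT against 55.57 and 62.0, and Zfp119b and Ccdc94 lay between 10.71 and 12.0 and between 29.83 and 32.69.

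Next to Ebi3, the peak of Zfp119b, a zinc finger gene, held 12.0, 10.71 and 11.25 RPM in NT, curdlan and curdlan with FK506, and that of Ccdc94 held 29.83, 32.69 and 30.51. Per kb of peak the values were 5.948, 4.835 and 4.803 at Zfp119b. At Ccdc94 they were 11.95, 7.665 and 10.82, lowest with curdlan, where that peak was longest. In the curdlan list the Ccdc94 peak (chr17:56096002-56100266, 696 tags) was long enough to overlap the 3′ end of Ebi3, which it did not reach in the other lists. By RPM, a peak upstream of Ebi3 that covered no annotated TSS (summit at -20668 bp from the Ebi3 TSS in NT) had NT below both others. It held 20.05, 27.9 and 27.74 RPM, and its RPM intervals with and without FK506 overlapped. This peak was shorter in NT, at 1877 bp against 2676 and 2664 bp. Per kb of peak it held 10.68, 10.43 and 10.41 RPM, with NT highest, where Ebi3 held 11.2, 12.92 and 14.65. At Il27, the large Cln3 and Apobr peak held 139.1, 122.4 and 121.7 RPM.

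**Figure D4:**
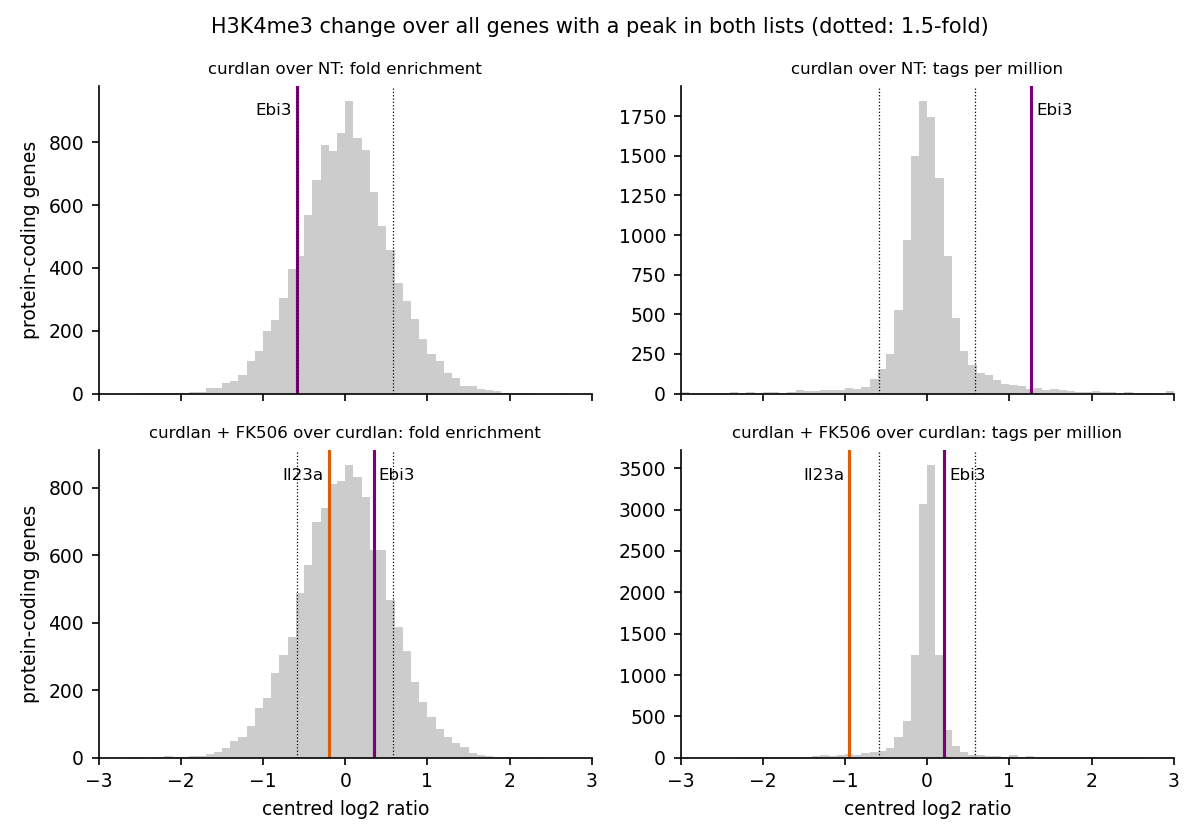
Distribution over protein-coding genes of the centred log2 ratio of H3K4me3 in curdlan over NT (top) and curdlan with FK506 over curdlan (bottom), by fold enrichment (left) and RPM (right), with Ebi3 and Il23a as lines and the 1.5-fold limits dotted. Ebi3 lies at -0.59 by fold enrichment and at 1.27 by RPM with curdlan, and Il23a lies at -0.20 and -0.95 when FK506 was added.

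The overlap of the 2 marks was also read at each site. Of the 10 NFATc2 summits, 4 were inside an H3K4me3 peak in each list, where 23.8%, 23.3% and 22.5% of all NFATc2 summits were. These were not the same 4 in each list. Those at the starts of Ublcp1, Cln3 and Ccdc94 were inside a peak in every list, the Il23a promoter summit was inside one in curdlan and in curdlan with FK506, and the summit in Cs was inside one in NT alone. Both Il12b summits upstream of the gene were outside H3K4me3 peaks in each condition.

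The sequences at the sites differed between the genes. GGAAAA was within 100 bp of 6 of the 10 summits, while 45.6% of all NFATc2 summits had it, and so did 18.0% of windows of the same length 1 kb to either side. TGANTCA was found at 3 of the 10 (21.8% of all summits, 6.15% of flanking windows), the NF-κB decamer at 2 (3.46% and 1.83%), the GAAA repeat at 1 (6.5% and 2.91%) and TTGCNNAA at 2 (9.05% and 8.31%). The Il23a promoter site had an NF-κB decamer, 95.5 bp from the summit in the printed sequence, and no GGAAAA within 100 bp. Farther out, that peak held TGANTCA at 109 bp and GGAAAA at 215 bp from the summit. Within 100 bp of its summit, the promoter site of Il12b matched none of the 5 motifs. Over the whole peak it held TGANTCA at 341 bp and still no GGAAAA. The Ebi3 site held TGACTCA at 17 bp and GGAAAA at 35.5 bp from the summit, and the Cln3 site downstream of Il27 held GGAAAA within a longer run that also matched the GAAA repeat, with TGACTCA on both sides. A match is a description of letters and not a site of binding, and a missing match says only that these letters are not in the window.

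The promoter site of Il12b and the site by Ublcp1 stood apart from the other 8 in base composition. The 201 bp at the Il12b promoter site held 13 CpG dinucleotides at a GC content of 63.2%, while the median NFATc2 site held 2 at 45.8%. As many were found at 107 of the 9438 sites, or 1.13%. The site by Ublcp1 held 17 at a GC content of 62.2%, and the other 8 sites held 2 to 4.

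The Il12b gene start itself was poor in CpG, as was the case for every member of the family. Over 500 bp to each side of the TSS, the ratio of observed to expected CpG was 0.221 at Il12a, 0.248 at Il12b, 0.324 at Il23a, 0.193 at Il27 and 0.0943 at Ebi3. The median was 0.732 over genes with an H3K4me3 peak in NT cells and 0.255 over those without. Of the 7661 genes with a ratio at or below that of Il23a, 16.2% had a peak in NT, against 69.9% of those above it. Ebi3 had the lowest ratio of the family, with 6.17% of genes below it, and was the one member with a peak in every list. GC content was 46.0% to 56.4%.

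**Figure D5:**
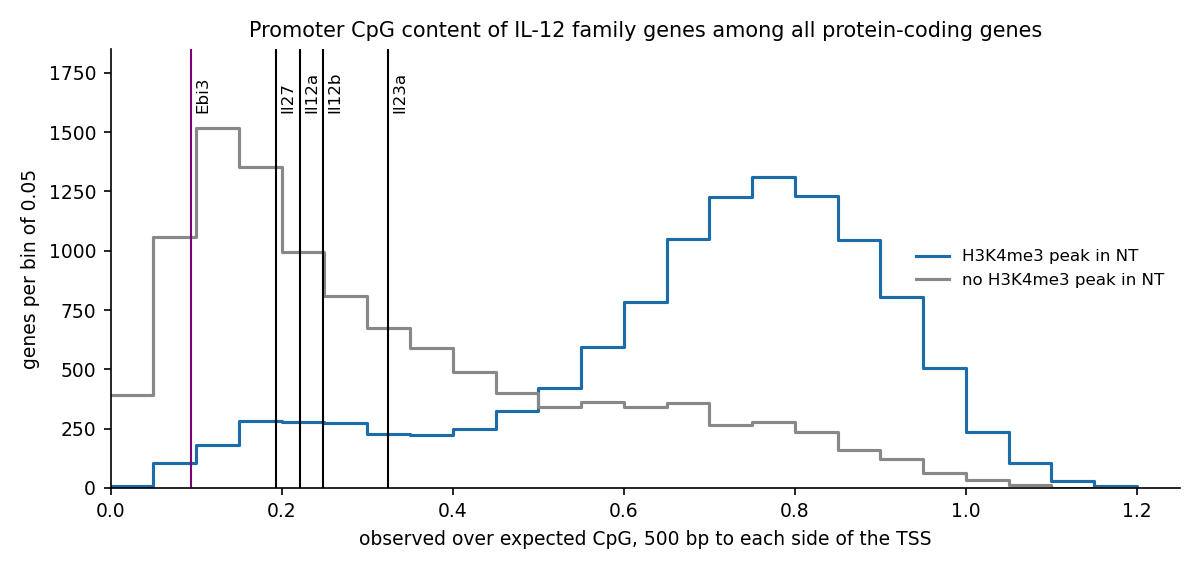
Number of protein-coding genes by the ratio of observed to expected CpG around the TSS, for genes with (blue) and without (grey) an H3K4me3 peak in NT, with the IL-12 family genes as lines. All 5 lie between 0.0943 and 0.324, in the range where genes without a peak are more frequent.

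The study also used PCR primers at Il12b and Il23a, and these were located on the genome to set them beside the peaks. By ChIP-PCR the paper reported more H3K4me3 at both genes after curdlan and less with FK506. For its ChIP-seq examples it described the gain with curdlan as abrogated by FK506. In the peak lists Il23a still had a called peak with FK506, of 189 tags. The paper also used NFATc2 overexpression, promoter reporter assays and mRNA at both genes, which were not examined here. Called peaks are another measure, and a gene without one may still carry signal under the threshold. The NFATc2 primers for Il12b flank chr11:44212588-44212789 and those for Il23a chr10:127735419-127735592, both inside the NFATc2 peaks at these promoters. The H3K4me3 primers for Il12b flank chr11:44213870-44214107, from 305 to 542 bp past the TSS, and the nearest H3K4me3 peak was 68408, 68358 and 68250 bp away in NT, curdlan and curdlan with FK506. Those named for Il23a flank 1001 bp (chr10:127734592-127735592) inside the curdlan and curdlan with FK506 peaks and 3478 bp from the nearest peak in NT. One primer of this pair is the same as one of the NFATc2 pair for Il23a, which may be a copying error in the primer table, so this length and position are uncertain.

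The receptors and signalling genes of the family were counted by the same rules, as 10 genes. A summit within 100 kb was found for 5 of them and within 30 kb for 3, against 55.4% and 30.2% of all genes. None had one within 1 kb, and only 5.35% of all genes had one within 1014 bp. The median distance was 115.7 kb, against 79.44 kb over all genes. An H3K4me3 peak was found at 5 in NT, 4 in curdlan and 6 in curdlan with FK506, where 51.5%, 51.2% and 51.1% of all genes had one, so these counts were near those of all genes. The receptor genes had no summit within 30 kb, and the nearest was that of Il6st, the gp130 chain of the IL-27 receptor, at 30.73 kb. Il12rb1, the chain that binds p40, had peaks of 274, 215 and 225 tags, or 16.44, 10.1 and 11.56 RPM, in NT, curdlan and curdlan with FK506. Il12rb2 had small peaks of 49 tags in NT (FDR 4.08%) and in curdlan with FK506 (FDR 7.23%), Il27ra one of 38 tags with FK506 alone (FDR 5.18%), and Il23r and Il6st had none. Among the kinases, Jak1 and Jak2 had summits at 2.989 and 2.22 kb and peaks in every list, and Tyk2 had a summit at 96.41 kb and no peak. Of the STAT transcription factors, Stat3 had a peak in every list. It held 72.2, 78.58 and 74.58 RPM in NT, curdlan and curdlan with FK506, and no difference was called by RPM. Stat4, which acts downstream of IL-12, had no peak. Of the 4 with peaks in NT and curdlan, Jak1 was called higher and Il12rb1 lower by fold enrichment, as were 13.8% and 14.4% of all genes, and none passed the limit by RPM. Fold enrichment at Jak1 was 65.43, 200.71 and 68.61 in NT, curdlan and curdlan with FK506. With FK506 added to curdlan Jak1 was called lower by this measure, as were 14.1% of all genes. Its peak held 33.31, 42.42 and 39.76 RPM in the same order. The RPM ratio of curdlan with FK506 to curdlan was 0.937 (0.85–1.03) and was not called.

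Genes with an H3K4me3 pattern most like that of a member were sought by the distance between log2 fold enrichments over the lists with a peak. The Il23a pattern, a peak in curdlan and in curdlan with FK506 but not in NT, was shared by 79 genes. The closest to it over these 2 lists were Scnn1a (16.0 and 12.12), Ccl1 (17.11 and 11.24), a chemokine gene, and Il1rn (16.53 and 10.67), which encodes the interleukin-1 receptor antagonist. Ebi3 was one of 11198 genes with a peak in all 3 lists, and the closest to it were Dpysl2 and Gm5464, which share a peak (51.0, 54.0 and 57.81), and Ccdc55 (49.44, 53.9 and 59.91).

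The labelled cell type was checked through H3K4me3 within 1 kb of the TSSs of marker genes. Of 9 DC and antigen presentation genes 8 had a peak in each list, including Itgax, Zbtb46, Clec7a (dectin-1) and H2-Ab1, and Flt3 had none. Peaks were found at 4, 4 and 3 of 4 macrophage genes, at 1 of 4 T cell genes (Lck, with Cd3e, Cd3g and Cd8a at none), and at none of the B cell, NK cell and fibroblast genes. Over the gene or within 1 kb of a TSS, 51.5%, 51.2% and 51.1% of all genes had a peak in NT, curdlan and curdlan with FK506. Since macrophage genes had peaks as well, these counts cannot tell DCs from macrophages. The part of other cells in the results was not tested.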

How the data were processed

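The data were 4 deposited peak lists from D1 cells, each made from 1 ChIP and 1 input library. Alignment by the authors was to mm9, with bowtie 1, and their peaks came from MACS (1.4.2 per the file headers) at a p-value of 1e-05, library by library. The deposited count of tags is not normalized. The authors' −log10 p is multiplied in the lists by a constant, their fold enrichment is a ratio to local input, and the deposited FDR is in percent. Median tags per peak were 63, 457, 581 and 508, and median fold enrichments 13.4, 34.6, 58.6 and 48.4, for NFATc2, NT, curdlan and curdlan with FK506.

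Genes came from Ensembl release 65 on NCBI build 37 (mm9), from which all sequences were read; primers came from the study's supplementary table. Changes were log2 ratios of the fold enrichment of the highest peak of a gene, centred on the median over genes and called past 1.5-fold; RPM used the header totals. Python 3.11.15, numpy 2.4.6, pandas 2.3.3 and scipy 1.17.1 were used, and the steps were tested on simulated data. Genes named were the members, their neighbours, the pathway genes and the 3 most alike per member. Members and lists were chosen with earlier results of these data known. The FK506 dose of these libraries is not given in the labels. One gene of the pathway list is not reported here and was left out of its counts.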

Additional observations from a re-analysis of the deposited data

How the results depend on the processing

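No paired analysis was possible because each condition had 1 library. Of the 10 NFATc2 summits, 5 had a p-value of 1e-10 or less and 5 lay within 30 kb; the Il23a promoter summit and both Il27 summits are among those lost at the stricter p-value, and the median distance became 39.1 kb. With 5 kb around the TSS, 2 members had a peak in NT, since the Pan2 peak then counted for Il23a. The Ebi3 change with curdlan (-0.59) reversed to 0.39 by RPM per kb, 1.27 by RPM, 0.15 by fold enrichment not centred and 0.89 by peak length; with curdlan and FK506 over NT (-0.23) it turned to 0.59, 1.47, 0.22 and 0.89 by the same measures. The Il23a change with FK506 (-0.20) was -0.67, -0.95 and -0.48 by RPM per kb, RPM and fold enrichment not centred. Accordingly, for curdlan over NT the 1 member past the limit became 0 by RPM per kb, without centring and at 2-fold, and for both comparisons with FK506 the 0 became 1 by RPM and per kb, and for that over NT also by peak length. With 1 library each, the spread between cultures is unknown, and a small peak of 36 tags is known only within 25.2–49.8.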
